A study of Danio rerio with 32 samples.

Results

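The genes described here encode the machinery that builds the primary cilium and moves cargo along it. They were chosen by name from the zebrafish count table: every gene whose symbol starts with ift, bbs, tctn or nphp followed by a digit, together with a fixed list of partners (traf3ip1, cluap1, kif3a, kif3b, kif3c, both kifap3 copies, kif17, dync2h1, dync2li1, wdpcp, mks1, cc2d2a, b9d1, b9d2, tmem67, rpgrip1l, arl13b, arl6 and inpp5e). The rule found 47 of 32057 genes, spread over 20 chromosomes. It uses gene symbols alone, but it was set with earlier results of these data known. All 47 passed the filter on low counts, with between 10 and 6203 read pairs per gene and library (median 725.5).

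RNA was sequenced from dissected tailbuds of zebrafish embryos at 16 somites, 4 pools of 80 tailbuds for each of 8 groups, to compare a lack of the cohesin subunit Rad21 with a lack of the alternative cohesin subunit Stag2b. The untreated groups were rad21-/- (homozygous for the nz171 allele), rad21+/- (heterozygous for it), stag2b-/- (homozygous for the nz207 allele) and WT (the WIK wild-type strain). The same genotypes made up BIO rad21-/-, BIO rad21+/-, BIO stag2b-/- and BIO WT, which had been kept in 2.5 µM BIO (6-bromoindirubin-3'-oxime, a GSK3 inhibitor that stimulates Wnt signalling) from 4 hours after fertilization until dissection. The rad21 genotypes were told apart by genotyping the head of each embryo, and rad21-/- embryos of this age still hold cohesin from their mothers. WT embryos came from a stock of their own, so in each comparison with WT the mutation and the background of the mutant line cannot be told apart, whereas rad21-/- and rad21+/- embryos share a line.

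Cilia are assembled by intraflagellar transport (IFT). Trains made of the IFT-B and IFT-A complexes are carried towards the tip by kinesin-2 and back to the base by dynein-2. The BBSome rides on these trains and carries membrane proteins, while the transition zone at the base acts as a gate for what enters. Primary cilia are the site of vertebrate Hedgehog signalling, and in the zebrafish tail motile cilia of Kupffer's vesicle, which depend on the same transport, set left-right asymmetry.

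Libraries held 32464614 to 115057368 counted read pairs. Of the 18 tailbud marker rows, 15 had reads in every library and a mean of at least 1 CPM (counts scaled to library size) in every group; the other 3 were a pair of wnt8a rows, with reads in 8 and 0 libraries, and 1 fgf8 row, with reads in 27. The mutated rad21a gene was at 53.9 ± 8.52 CPM in rad21-/- and 378 ± 31.2 CPM in rad21+/-, against 784 ± 70.8 CPM in WT (SD, n = 4 each), in the order of its labels. The stag2b transcript was at 165 ± 7.78 CPM in stag2b-/- and 188 ± 22.2 CPM in WT (log2 fold change -0.20, adjusted p = 0.224), so its level is a weak check of the stag2b labels. All adjusted p-values come from edgeR's quasi-likelihood test across all genes with Benjamini-Hochberg adjustment, and a gene is called at a 5% false discovery rate. In bulk RNA, fewer cells of a type and less RNA per cell cannot be told apart, and since the labels do not say whether the 4 pools came from separate clutches, the p-values measure the spread between these pools only.

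In WT tailbuds the cilium genes were expressed at a median of 5.25 CPM per kb of exon, against 3.28 CPM per kb over all genes tested, and 30 of the 47 lay above that all-gene median. The 3 highest levels per length were those of IFT-B subunits: ift74, which with Ift81 binds tubulin, at 32.3 ± 6.00 CPM per kb, ift46 at 21.5 ± 2.26 and ift57 at 20.6 ± 3.12 (SD, n = 4). The levels of ift46 and ift57 did not differ beyond their spread. The 3 lowest levels per length belonged to kinesin-2 genes: kif3c on chromosome 20 at 0.324 ± 0.0891 CPM per kb, kif17 at 0.187 ± 0.0271 and kif3c on chromosome 17 at 0.170 ± 0.0126, of which the last pair did not differ beyond their spread. By role, the median level per length was 9.10 CPM per kb for the 14 IFT-B genes and 6.14 for the 10 transition zone genes. It was 5.10 for ift140, the IFT-A gene among the 47. The IFT-A genes ttc21b, wdr19 and wdr35 were listed with the other primary cilium genes. The median was 4.50 for the dynein-2 genes dync2h1 and dync2li1 and 4.46 for the 4 ciliary membrane and other genes. It was 4.01 for the 6 BBSome subunits, 1.78 for the 7 kinesin-2 genes and 1.41 for the 3 genes of BBSome assembly and recruitment. Among the kinesin-2 genes, kif3a had 7.17 CPM per kb and its motor partner kif3b 1.78 CPM per kb.

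**Figure D1:**
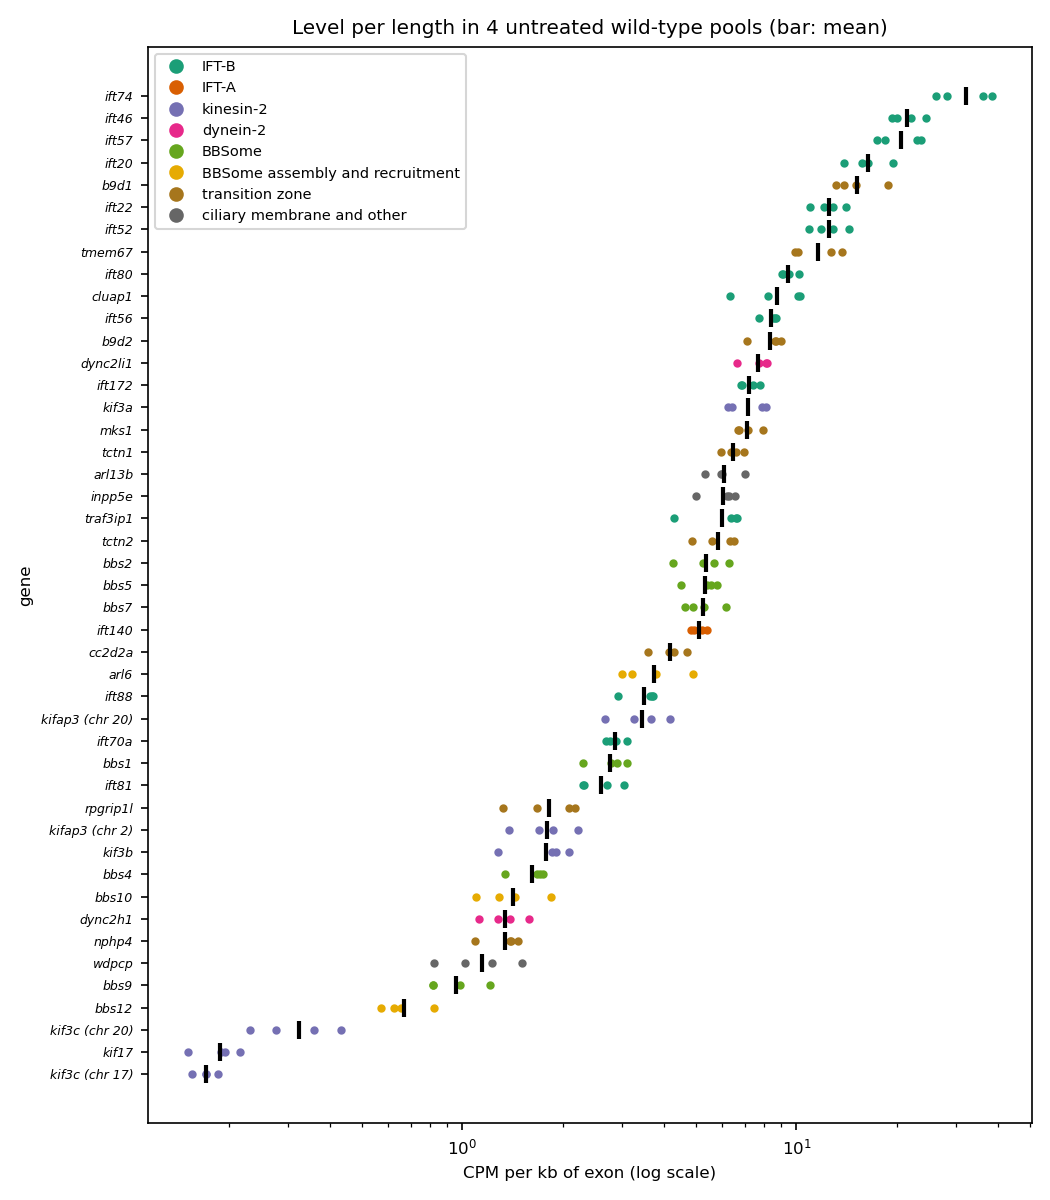
Level per length of 45 cilium genes in untreated WT tailbuds, in CPM per kb of exon on a log axis; each point is 1 pool, the bar is the mean of 4 pools and the colour gives the role of the gene. The means run over a 190-fold range, with ift74 at the top and kif3c on chromosome 17 at the bottom.

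In untreated rad21-/- tailbuds 6 of the 47 cilium genes were higher and 12 were lower than in WT. These 18 calls are 38.3% of the group, and 32.5% of all genes tested were called (15.8% higher, 16.7% lower), a share near that of the cilium genes. The pools of rad21-/- and WT did not overlap for 18 cilium genes and for 30.9% of all genes. The median log2 fold change was -0.12 over the cilium genes and -0.02 over all genes. In rad21+/- tailbuds 3 cilium genes were higher and 7 lower than in WT (21.3% of them, against 20.5% of all genes, 10.8% higher and 9.75% lower), with a median log2 fold change of -0.01, which is also that of all genes. In stag2b-/- tailbuds 1 cilium gene was lower and 0 were higher, where 6.29% of all genes were called (2.41% higher, 3.88% lower). There, 7 cilium genes had an unadjusted p under 0.05, as did 4261 of the 20677 genes tested. The median was -0.09 against -0.01 over all genes. No cilium gene was called in all 3 untreated mutants in this fit. Under DESeq2, and in a fit on all 32 libraries, arl13b and bbs4 were called in all 3. In stag2b-/- both were lower (DESeq2 adjusted p = 0.0239 for arl13b and 0.0234 for bbs4). In the rad21 genotypes arl13b was lower and bbs4 higher. These 3 comparisons share the WT pools.

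**Figure D2:**
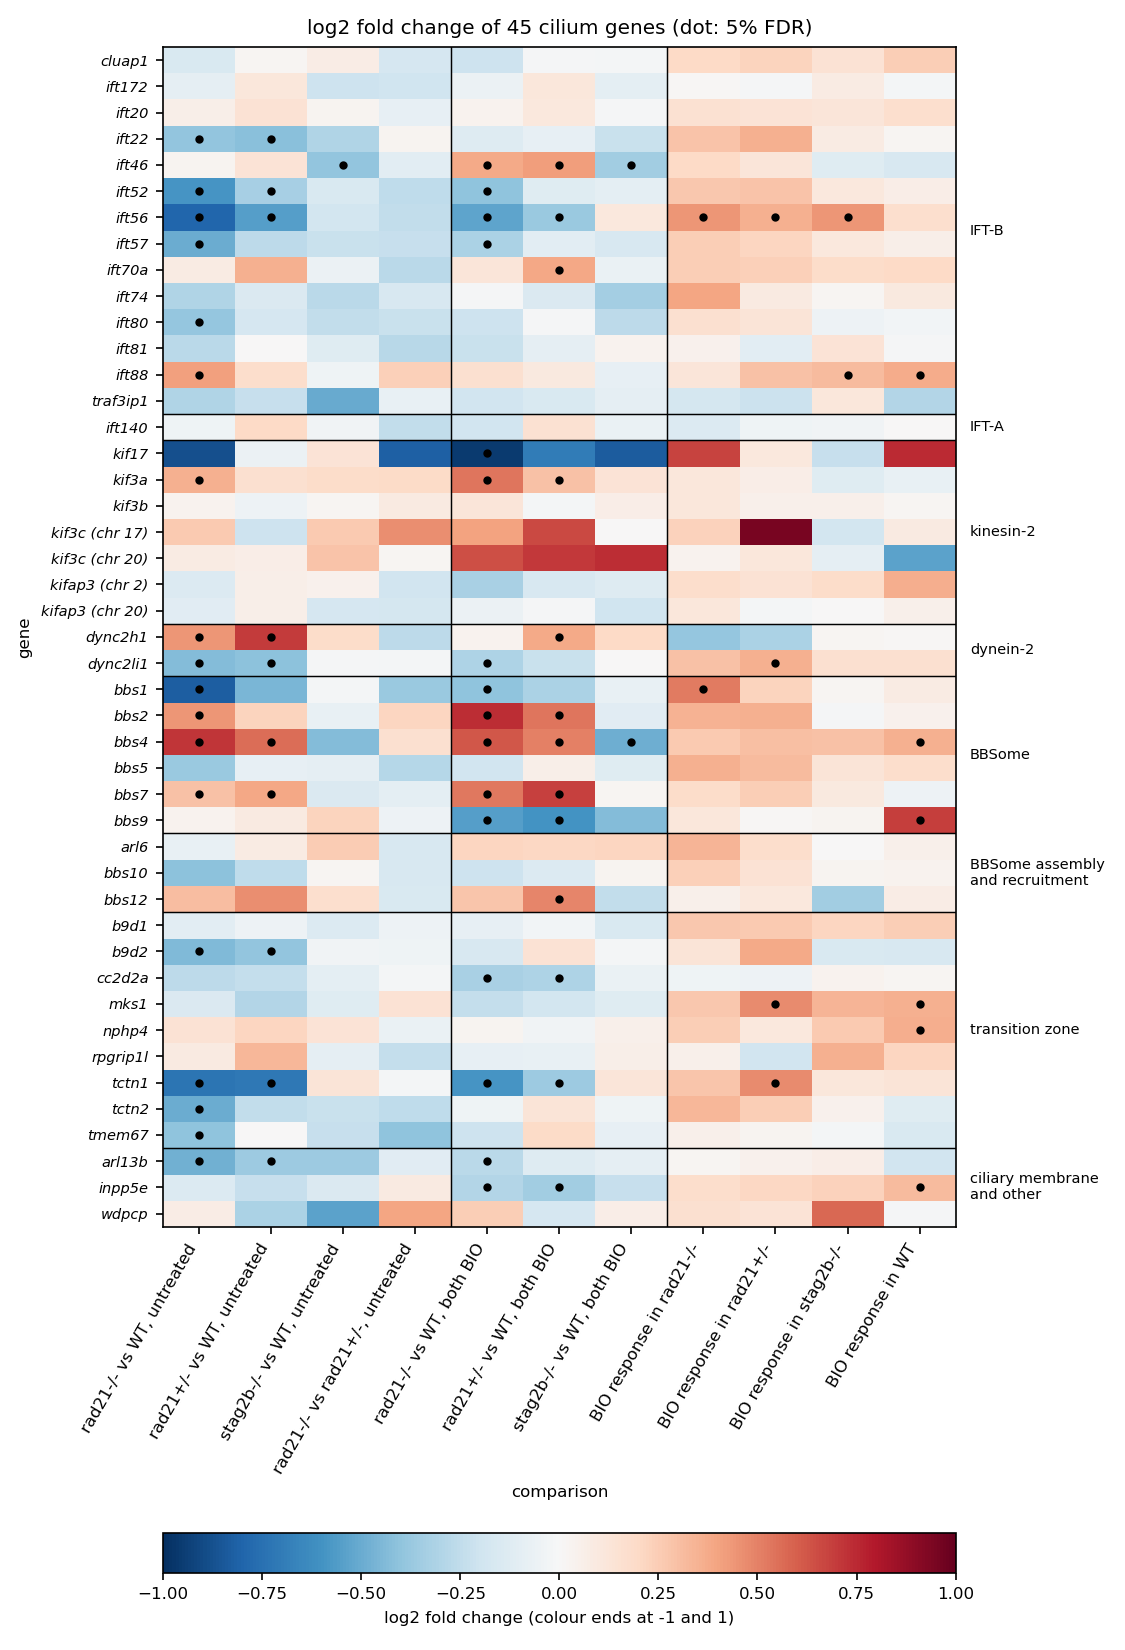
log2 fold change of 45 cilium genes (rows, by role) in 11 comparisons (columns), blue for lower and red for higher in the group named first, with the colour scale ending at -1 and 1; a dot marks a call at a 5% false discovery rate. Calls in the rad21 mutants run in both directions, whereas each of the 14 calls drawn for the 4 BIO responses is higher.

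BIO rad21-/- tailbuds had 5 cilium genes higher and 11 lower than BIO WT, where 35.6% of all genes were called (16.8% higher, 18.8% lower). BIO rad21+/- had 8 higher and 5 lower, where 22.9% of all genes were called (11.7% higher, 11.2% lower), and BIO stag2b-/- had 0 higher and 2 lower, where 13.6% were (6.56% higher, 7.04% lower). The members' medians were -0.15, -0.03 and -0.07 on the log2 scale in these 3 comparisons. Over all genes the medians were -0.013, -0.0004 and -0.008 in the same order. With the replicate number as a block, which paired the pools in the rad21-/- and stag2b-/- comparisons with BIO WT, the stag2b-/- count was 5, with bbs9, ift74 and ift80 added, and the share of all genes called was 17.2%. The BIO pools are other libraries than the untreated ones, so the comparisons with BIO WT repeat the genotype contrast in a second set of pools. The sets may not be independent. Over all libraries, 23 of 32 correlated best with their own replicate number, and the labels do not say whether same-numbered pools share a clutch. The BIO comparisons also take the spread of each gene from a fit that holds the untreated libraries.

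Of the rad21-/- calls, 11 were made in the same direction in both sets. They are bbs1, ift52, ift56, ift57, arl13b, dync2li1 and tctn1, which were lower in rad21-/-, and bbs2, bbs4, bbs7 and kif3a, which were higher. They make up 61.1% of the 18 untreated calls and 68.8% of the 16 calls under BIO. All 18 untreated calls had the same sign under BIO, and 15 of the 16 BIO calls had the same sign untreated. Across the 47 genes, which are not independent replicates, the log2 fold changes of the 2 sets had a Pearson's r of 0.798 and a Spearman's rho of 0.793. In rad21+/- the calls of bbs4, bbs7, ift56, dync2h1 and tctn1 were shared by both sets, 50% of 10 untreated and 38.5% of 13 BIO calls. Of these rad21+/- calls, 9 of the 10 untreated had the same sign under BIO, and 12 of the 13 BIO calls had the same sign untreated. In stag2b-/- the shared call was that of ift46. The correlations between the 2 sets were lower than in rad21-/-. Pearson's r was 0.575 in rad21+/- and 0.31 in stag2b-/-, and Spearman's rho was 0.634 and 0.399. These shared shares, sign counts and correlations were not computed over all genes, so they cannot be read as particular to the cilium genes.

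**Figure D3:**
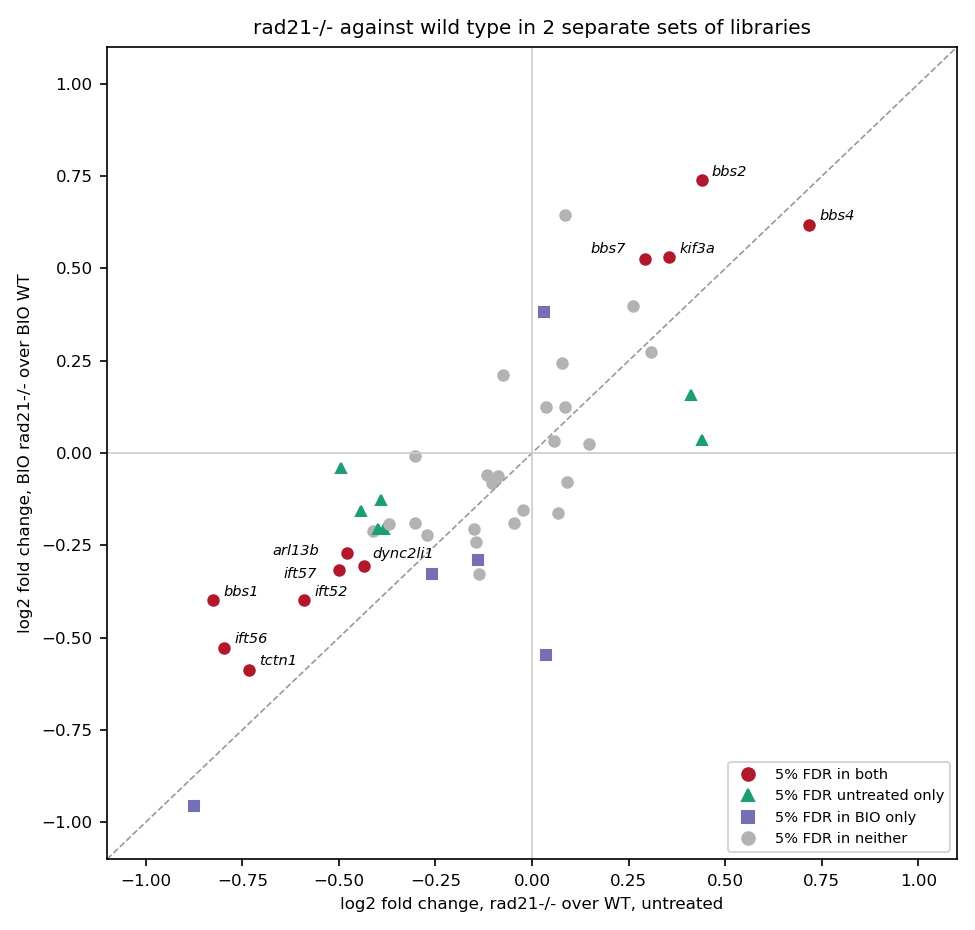
log2 fold change of each of the 47 cilium genes in untreated rad21-/- over WT (x axis) and in BIO rad21-/- over BIO WT (y axis); colours and symbols give the set in which the gene was called, and the dashed line marks equal values. The 11 named genes were called in both sets, 7 at the lower left and 4 at the upper right.

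Among the 14 IFT-B genes, 5 were lower (ift56, ift52, ift57, ift80 and ift22) and 1 higher (ift88) in rad21-/-. That is 42.9% of them, against 32.5% of all genes, and their median log2 fold change was -0.29. ift56 (chr6:7688491-7711349, minus strand, GRCz11) encodes an IFT-B subunit that in Chlamydomonas is needed to bring motility proteins into the flagellum. It was at 13.8, 12.2, 14.3 and 12.9 CPM in the rad21-/- pools, 17.2, 18.2, 14.05 and 13.7 CPM in the rad21+/- pools, 20.3, 19.7, 20.6 and 21.6 CPM in the stag2b-/- pools and 23.6, 21.4, 23.98 and 23.8 CPM in the WT pools. All rad21-/- and rad21+/- pools lay below all WT pools. The log2 fold change over WT was -0.80 in rad21-/- (SE 0.11, adjusted p = 2.05e-05) and -0.55 in rad21+/- (SE 0.11, adjusted p = 0.00105). Under BIO, ift56 was at 19.4, 16.8, 16.1 and 20.1 CPM in rad21-/-, 19.8, 20.7, 17.9 and 22.4 CPM in rad21+/- and 27.1, 24.7, 25.5 and 27.1 CPM in WT. The groups again did not overlap, with log2 fold changes of -0.53 in rad21-/- (SE 0.10, adjusted p = 0.000107) and -0.37 in rad21+/- (SE 0.10, adjusted p = 0.00678). In stag2b-/- it was not called, at -0.18 untreated (adjusted p = 0.349) and 0.10 under BIO (adjusted p = 0.570). Of the exon bases of ift56, 21.97% are shared with another gene on the same strand, and read pairs that fell in both were not counted.

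ift52 (chr11:1533097-1546015, plus strand) encodes a subunit that holds the core of the IFT-B complex together. It was at 16.1, 15.9, 16.96 and 15.99 CPM in rad21-/-, 19.1, 20.99, 19.02 and 18.7 CPM in rad21+/- and 23.3, 21.4, 25.3 and 28.2 CPM in WT. The rad21-/- pools were the lowest and varied least, and neither mutant overlapped WT. The log2 fold change was -0.59 in rad21-/- (SE 0.11, adjusted p = 0.000497) and -0.33 in rad21+/- (SE 0.11, adjusted p = 0.0368). Under BIO it was at 20.7, 19.6, 18.4 and 19.5 CPM in rad21-/- and 25.5, 25.9, 23.6 and 28 CPM in WT, again without overlap (log2 fold change -0.40, SE 0.10, adjusted p = 0.0017). The rad21+/- call was lost without rad21+/- pool 1, 3 or 4 or WT pool 3 or 4 (adjusted p = 0.0670 to 0.143), or with no filter on low counts.

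ift57 (chr2:42200390-42210526, plus strand), whose product belongs to the peripheral part of the IFT-B complex, was at 21.2, 19.2, 21.6 and 25.97 CPM in rad21-/- and 35.7, 26.5, 27.8 and 34.7 CPM in WT. The highest rad21-/- pool lay just under the lowest WT pool (log2 fold change -0.50, SE 0.13, adjusted p = 0.00741). In the BIO-treated pools it was at 29.7, 23.4, 22.8 and 28.3 CPM in rad21-/- and 35.5, 31.8, 29.3 and 33.1 CPM in WT, where 1 rad21-/- pool lay above the lowest WT pool (log2 fold change -0.32, SE 0.12, adjusted p = 0.0328). That second call was lost without BIO rad21-/- pool 2 or 3 or BIO WT pool 1 or 4 (adjusted p = 0.0945 to 0.150), and under DESeq2 and RLE normalization. ift80, another gene of that part of the complex, was at 23.2, 20.8, 21.9 and 24.6 CPM in rad21-/- and 29.8, 28.4, 28.5 and 31.8 CPM in WT, with no overlap (log2 fold change -0.38, SE 0.10, adjusted p = 0.00587).

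ift22, which encodes a Rab-like small GTPase of the IFT-B complex, was at 8.48, 8.85, 9.91 and 8.66 CPM in rad21-/-, 8.55, 9.47, 8.62 and 8.76 CPM in rad21+/- and 11.4, 10.4, 13.3 and 12.1 CPM in WT. Both rad21 genotypes lay below WT by a like amount, with log2 fold changes of -0.39 in rad21-/- (SE 0.12, adjusted p = 0.0199) and -0.42 in rad21+/- (SE 0.12, adjusted p = 0.0206). The call was lost in rad21-/- without rad21-/- pool 1 or WT pool 3 (adjusted p = 0.0524 to 0.0648), and in rad21+/- without rad21+/- pool 1 or WT pool 3 or 4 (adjusted p = 0.0525 to 0.0610).

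ift88, the gene mutated in the Tg737 mouse and needed for cilium assembly, went the other way. It was at 18.1, 16.8, 15.9 and 16.4 CPM in rad21-/- and 13.5, 10.6, 13.2 and 13.4 CPM in WT (log2 fold change 0.41, SE 0.12, adjusted p = 0.0147). No pools overlapped, and the call was lost without WT pool 2 (adjusted p = 0.0518). Under BIO its log2 fold change was 0.16, which was not called.

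ift46 (chr10:29735900-29744921, minus strand), whose product is needed in Chlamydomonas to bring outer dynein arms into the flagellum, was the 1 cilium gene called in untreated stag2b-/-. It was at 27.7, 24.5, 27.02 and 26.4 CPM in stag2b-/- and 35.4, 32.2, 31.03 and 39.1 CPM in WT (log2 fold change -0.39, SE 0.11, adjusted p = 0.0381). With BIO its level was 26.1, 23.03, 23.7 and 24.4 CPM in stag2b-/- and 35.9, 30.4, 27.4 and 29.8 CPM in WT (log2 fold change -0.35, SE 0.10, adjusted p = 0.0246). The stag2b-/- pools lay below WT in both sets. The untreated call was lost without any 1 of the 4 stag2b-/- pools or WT pool 1 or 4 (adjusted p = 0.0575 to 0.159) and with no filter on low counts (adjusted p = 0.0509). The BIO call was lost without BIO stag2b-/- pool 2, 3 or 4 or BIO WT pool 1 (adjusted p = 0.0558 to 0.135). In the rad21 mutants ift46 was called under BIO alone. It was at 46.1, 38.5, 34.3 and 42.2 CPM in BIO rad21-/- and 45.6, 39.3, 37.4 and 42.6 CPM in BIO rad21+/-. The log2 fold change over BIO WT was 0.38 in rad21-/- (SE 0.10, adjusted p = 0.00455), where 1 pool overlapped BIO WT, and 0.42 in rad21+/- (SE 0.10, adjusted p = 0.00363), where none did.

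ift70a, which encodes a subunit built of tetratricopeptide repeats, was called in BIO rad21+/-, at 27.8, 26.2, 24.4 and 24.6 CPM against 21.2, 19.1, 18.95 and 19.4 CPM in BIO WT, with no overlap (log2 fold change 0.39, SE 0.11, adjusted p = 0.0118). The remaining IFT-B genes cluap1, ift172, ift20, ift74, ift81 and traf3ip1 were called in none of the mutant comparisons or BIO responses of the main fits. Among them ift74 was at -0.30 on the log2 scale in rad21-/- over WT (adjusted p = 0.166), and traf3ip1, whose product links IFT-B to microtubules, had -0.51 in stag2b-/- (adjusted p = 0.0655). In stag2b-/- traf3ip1 was called lower under DESeq2 (adjusted p = 0.0365). The same call was made with the replicate block (0.0154) and in a fit on all 32 libraries (0.0161). ift140 of the IFT-A complex had -0.05 in rad21-/- (adjusted p = 0.763) and 0.20 in rad21+/- (adjusted p = 0.180).

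**Figure D4:**
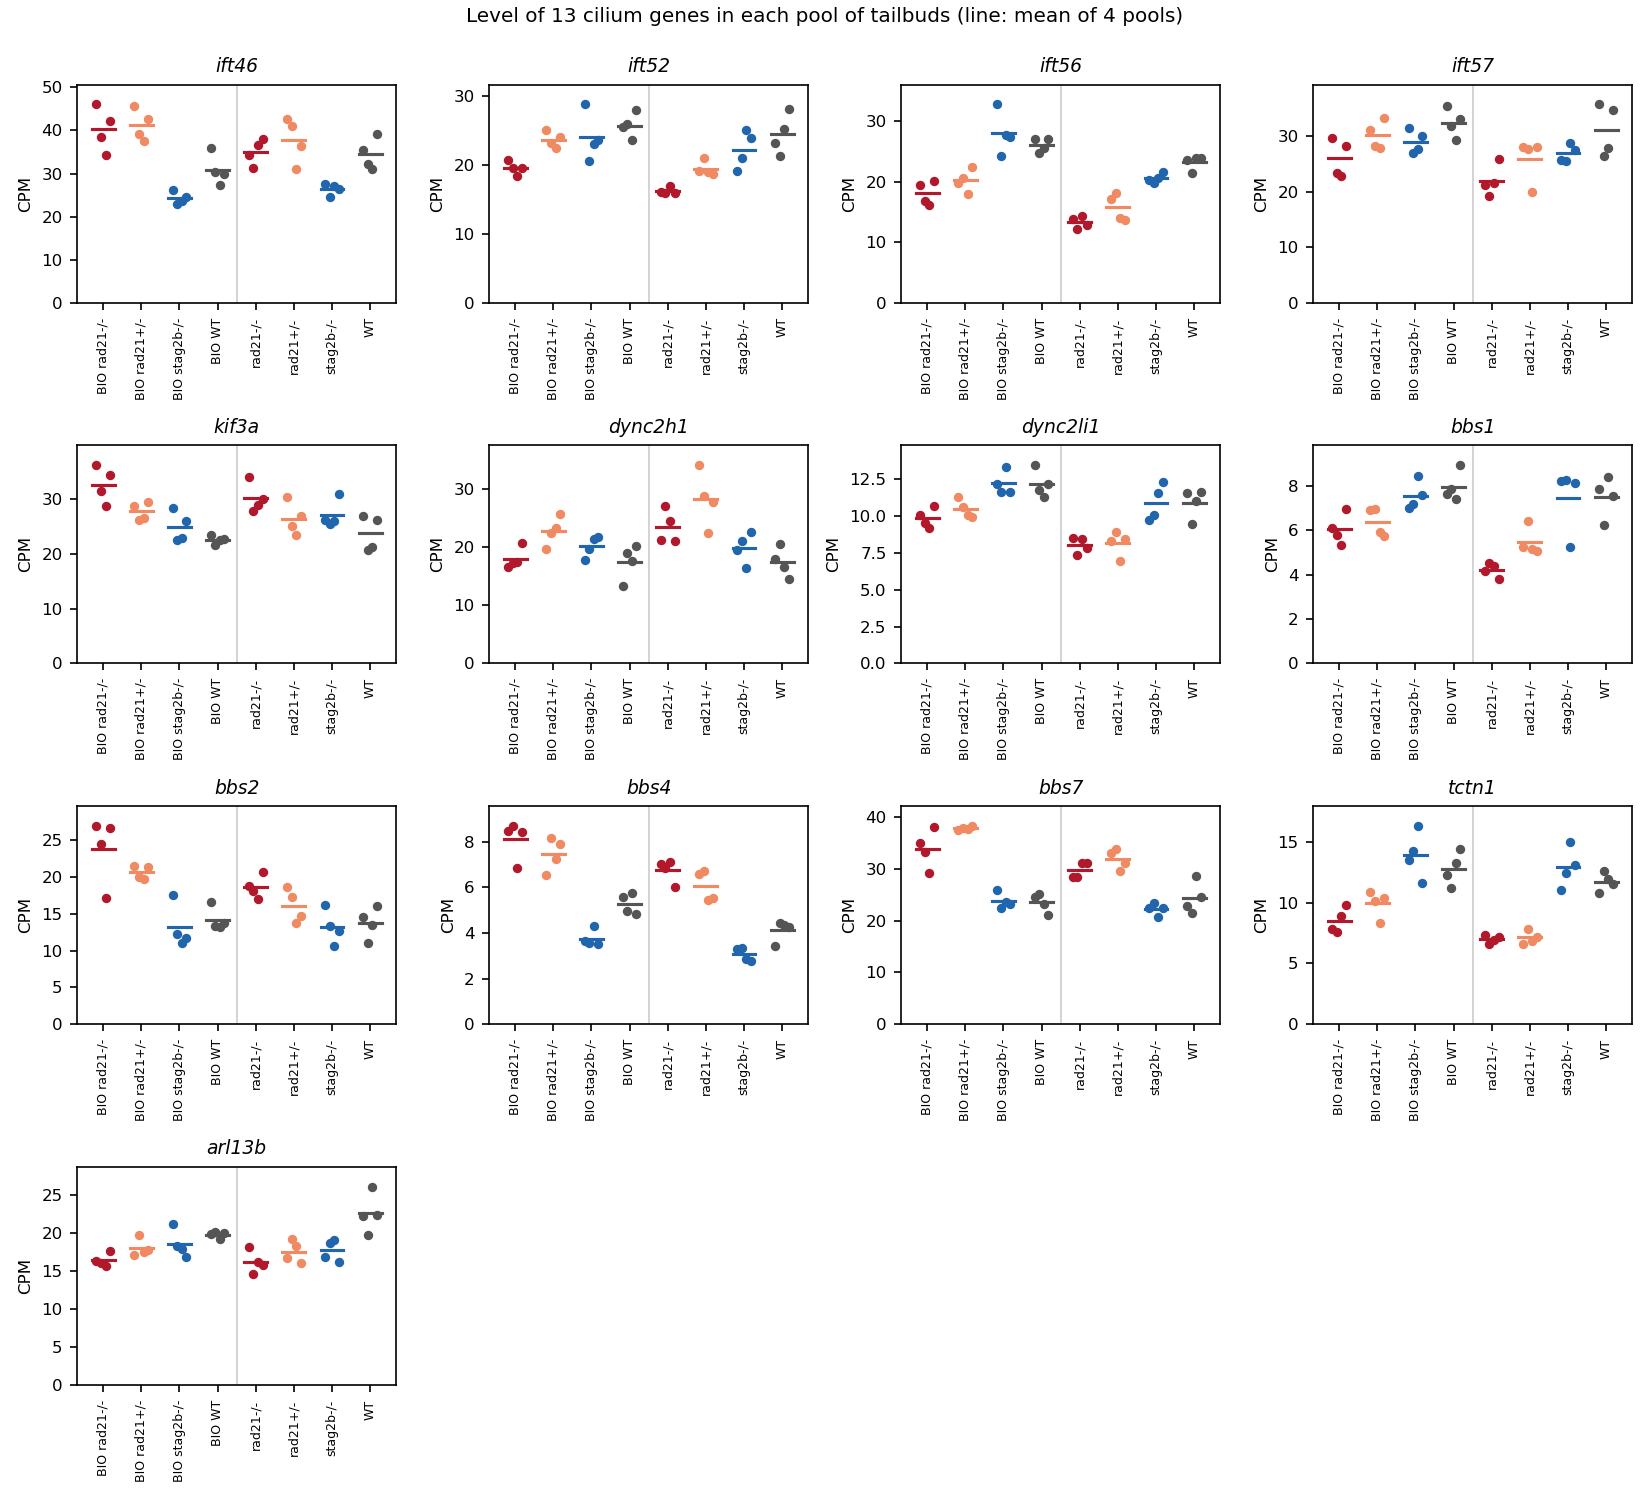
CPM of 13 cilium genes in each of 32 pools of tailbuds (points) with the mean of 4 pools (line), BIO-treated groups left and untreated groups right of the grey line, with the axes starting at 0. ift56, ift52, bbs1 and tctn1 were lower, and bbs2, bbs4 and kif3a higher, in rad21-/- than in WT both with and without BIO, whereas ift46 was lower in stag2b-/- in both settings.

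Among the 7 kinesin-2 genes, 1 was called in untreated rad21-/-. That is 14.3% of them, against 32.5% of all genes. kif3a (chr14:23970818-23999566, plus strand), which encodes the motor subunit shared by the kinesin-2 heterotrimers, was at 34.01, 27.9, 28.9 and 30.1 CPM in rad21-/- and 26.9, 20.6, 21.2 and 26.2 CPM in WT (log2 fold change 0.35, SE 0.12, adjusted p = 0.0261). In BIO pools its level was 36.2, 31.5, 28.6 and 34.3 CPM in rad21-/-, 28.8, 26.3, 26.5 and 29.5 CPM in rad21+/- and 23.4, 21.6, 22.6 and 22.8 CPM in WT. BIO WT pools were the lowest and closest together, and the log2 fold change was 0.53 in rad21-/- (SE 0.10, adjusted p = 0.000127) and 0.30 in rad21+/- (SE 0.10, adjusted p = 0.0350). The untreated call was lost without rad21-/- pool 1 or 4 or WT pool 2 or 3 (adjusted p = 0.0592 to 0.0892), and the BIO rad21+/- call without BIO rad21+/- pool 1 or 4 or BIO WT pool 2, 3 or 4 (adjusted p = 0.0618 to 0.0937).

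kif3b, the other motor subunit of the heterotrimer, had log2 fold changes between -0.05 and 0.12 in all comparisons, interactions included, and was called in none. Neither kif3c, an alternative partner of Kif3a, nor kifap3, the non-motor subunit, was called as either copy in any comparison of the main fits. Of these copies, kif3c on chromosome 20 was at 0.74 on the log2 scale in BIO stag2b-/- over BIO WT (adjusted p = 0.120). kifap3 on chromosome 2 had -0.33 in BIO rad21-/- (adjusted p = 0.0573), which passed with the replicate block and when the fit held the compared groups alone (0.0416). With BIO in WT it had 0.36 (adjusted p = 0.0626), which was called under DESeq2 (0.0406) and with the replicate block (0.0457). kif17, which encodes the homodimeric kinesin-2, was called in BIO rad21-/-, at 0.577, 0.599, 0.422 and 0.345 CPM against 1.12, 1.11, 1.09 and 0.508 CPM in BIO WT (log2 fold change -0.96, SE 0.33, adjusted p = 0.0208). These levels rest on 15 to 49 read pairs per BIO rad21-/- library and 30 to 69 per BIO WT library, and the pools overlapped through BIO WT pool 4. The call was lost without BIO rad21-/- pool 3 or 4 or BIO WT pool 1 or 2 (adjusted p = 0.0575 to 0.0758).

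Of dynein-2, the symbol rule took in the genes of the heavy chain and the light intermediate chain. These moved in opposite directions in both untreated rad21 genotypes. Other dynein-2 genes, such as dync2i1, dync2i2 and dynlt2b, were listed with the other primary cilium genes and are not shown singly. dync2h1 (chr15:45008585-45246911, minus strand), the heavy chain gene, was at 21.2, 27.1, 24.5 and 21.1 CPM in rad21-/-, 34.1, 28.7, 22.4 and 27.7 CPM in rad21+/- and 17.98, 20.5, 16.5 and 14.5 CPM in WT. The heterozygous pools reached the highest levels, with log2 fold changes of 0.44 in rad21-/- (SE 0.14, adjusted p = 0.0227) and 0.70 in rad21+/- (SE 0.14, adjusted p = 0.00155). Under BIO it was at 16.6, 17.2, 17.3 and 20.6 CPM in rad21-/-, where it was not called, and at 19.6, 22.4, 23.2 and 25.7 CPM in rad21+/-, against 13.2, 18.9, 17.6 and 20.2 CPM in WT (rad21+/- log2 fold change 0.38, SE 0.13, adjusted p = 0.0406, pools overlapping). The untreated rad21-/- call was lost without rad21-/- pool 2 or 3 or WT pool 3 or 4 (adjusted p = 0.0542 to 0.0898), and the BIO rad21+/- call without BIO rad21+/- pool 2, 3 or 4 or BIO WT pool 1 or 3 (adjusted p = 0.0665 to 0.163).

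dync2li1 (chr13:10970614-10981704, plus strand), the light intermediate chain gene, was at 8.48, 7.34, 8.44 and 7.82 CPM in rad21-/-, 8.31, 8.93, 6.97 and 8.46 CPM in rad21+/- and 11.5, 9.43, 10.97 and 11.6 CPM in WT. All mutant pools lay below all WT pools. Relative to WT the log2 fold change was -0.44 in rad21-/- (SE 0.12, adjusted p = 0.0115) and -0.41 in rad21+/- (SE 0.12, adjusted p = 0.0224). In the BIO-treated pools it was at 10.1, 9.53, 9.16 and 10.6 CPM in rad21-/- and 13.4, 11.8, 11.3 and 12.2 CPM in WT, again without overlap (log2 fold change -0.31, SE 0.10, adjusted p = 0.0173). The rad21+/- call was lost without rad21+/- pool 1 or 3 or WT pool 1 or 4 (adjusted p = 0.0502 to 0.0802), and the BIO call without BIO rad21-/- pool 3 or BIO WT pool 1 (adjusted p = 0.0595 to 0.109).

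The 6 BBSome subunits split. In rad21-/- tailbuds bbs2, bbs4 and bbs7 were higher and bbs1 was lower, and the median over the 6 was 0.16 on the log2 scale. These calls are 66.7% of the 6, against 32.5% of all genes. bbs1 (chr21:27464538-27481382, plus strand) encodes the subunit through which the BBSome is held by the GTPase Arl6. It was at 4.14, 4.53, 4.38 and 3.82 CPM in rad21-/-, 5.23, 6.43, 5.14 and 5.05 CPM in rad21+/- and 7.86, 6.22, 8.42 and 7.55 CPM in WT. The rad21-/- pools were the lowest, and the heterozygous pools lay between, with 1 of them inside the WT range. The log2 fold change was -0.83 in rad21-/- (SE 0.16, adjusted p = 0.000802), and -0.46 in rad21+/- (adjusted p = 0.0504), which was not called. Under BIO, bbs1 was at 6.12, 5.78, 5.31 and 6.96 CPM in rad21-/- and 7.63, 7.86, 7.39 and 8.94 CPM in WT (log2 fold change -0.40, SE 0.13, adjusted p = 0.0192). That call was lost without BIO rad21-/- pool 2 or 3 or BIO WT pool 4 (adjusted p = 0.0521 to 0.0985).

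bbs4 (chr25:2668881-2702935, plus strand), which encodes a tetratricopeptide-repeat subunit, was at 7.01, 6.83, 7.11 and 6.03 CPM in rad21-/-, 6.56, 6.72, 5.43 and 5.52 CPM in rad21+/-, 3.30, 3.32, 2.87 and 2.79 CPM in stag2b-/- and 3.40, 4.44, 4.35 and 4.27 CPM in WT. Both rad21 genotypes lay above WT, and each stag2b-/- pool lay below. The log2 fold change over WT was 0.72 in rad21-/- (SE 0.14, adjusted p = 0.00089), 0.56 in rad21+/- (SE 0.14, adjusted p = 0.0088) and -0.43 in stag2b-/- (adjusted p = 0.0818), which was not called. With BIO its level was 8.45, 8.69, 6.83 and 8.41 CPM in rad21-/-, 6.51, 8.15, 7.26 and 7.90 CPM in rad21+/-, 3.62, 3.56, 4.29 and 3.52 CPM in stag2b-/- and 5.55, 4.94, 5.76 and 4.84 CPM in WT. The order of the groups was the same and none overlapped BIO WT. All 3 were called: 0.62 in rad21-/- (SE 0.12, adjusted p = 0.000147), 0.50 in rad21+/- (SE 0.12, adjusted p = 0.00251) and -0.49 in stag2b-/- (SE 0.12, adjusted p = 0.00705). Each of these 3 calls under BIO was kept when any 1 pool of the groups compared was left out.

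bbs2 (chr18:17516569-17531483, minus strand) and bbs7 (chr14:46375241-46395659, minus strand) encode propeller subunits that, with Bbs9, form the core of the complex. bbs2 was at 18.8, 18.1, 17.05 and 20.8 CPM in rad21-/- and 14.6, 11.01, 13.5 and 16.1 CPM in WT (log2 fold change 0.44, SE 0.14, adjusted p = 0.0269). In BIO pools its level was 26.98, 24.5, 17.1 and 26.6 CPM in rad21-/-, 21.5, 19.96, 19.8 and 21.3 CPM in rad21+/- and 16.7, 13.3, 13.2 and 13.7 CPM in WT. Every pool of both rad21 genotypes lay above every BIO WT pool, and the log2 fold change was 0.74 in rad21-/- (SE 0.15, adjusted p = 0.000212) and 0.53 in rad21+/- (SE 0.15, adjusted p = 0.00852). The untreated bbs2 call was lost without rad21-/- pool 2 or 4 or WT pool 2 or 3 (adjusted p = 0.0528 to 0.0900).

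bbs7 was at 28.4, 28.3, 31.1 and 31.04 CPM in rad21-/-, 33.1, 33.8, 29.6 and 31.2 CPM in rad21+/- and 22.7, 21.5, 28.6 and 24.6 CPM in WT. WT pool 3 reached into the rad21-/- range and stayed under the heterozygous one. Relative to WT the log2 fold change was 0.29 in rad21-/- (SE 0.10, adjusted p = 0.0309) and 0.39 in rad21+/- (SE 0.10, adjusted p = 0.00869). Under BIO it was at 34.96, 33.2, 29.2 and 38.1 CPM in rad21-/-, 37.4, 37.95, 37.6 and 38.3 CPM in rad21+/- and 24.5, 25.1, 23.2 and 21.1 CPM in WT. The BIO rad21+/- pools were nearly equal and well above BIO WT, with log2 fold changes of 0.53 in rad21-/- (SE 0.09, adjusted p = 1.88e-05) and 0.69 in rad21+/- (SE 0.09, adjusted p = 5.39e-07). The untreated rad21-/- call was lost without rad21-/- pool 2, 3 or 4 or WT pool 1, 2 or 4 (adjusted p = 0.0504 to 0.0984).

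Between mutants and WT, bbs9 (chr16:6957582-7062949, plus strand) was called under BIO alone. It was also called higher with BIO in WT (log2 fold change 0.69, adjusted p = 0.00179). It was at 3.03, 3.42, 2.49 and 2.83 CPM in BIO rad21-/-, 2.64, 2.87, 3.07 and 2.81 CPM in BIO rad21+/- and 4.22, 4.63, 3.92 and 4.45 CPM in BIO WT, with log2 fold changes of -0.55 in rad21-/- (SE 0.15, adjusted p = 0.00526) and -0.60 in rad21+/- (SE 0.15, adjusted p = 0.00452). In BIO stag2b-/- bbs9 was at -0.43 (adjusted p = 0.0579), not called in the main fit. It was called lower there under DESeq2 (adjusted p = 0.0351) and with the replicate block (0.0418). In untreated pools it was at 2.73, 2.81, 2.38 and 2.96 CPM in rad21-/-, 2.97, 3.00, 2.74 and 2.60 CPM in rad21+/- and 2.27, 3.37, 2.27 and 2.75 CPM in WT, and these groups overlapped. Of the other genes of this role, bbs5 had -0.37 in rad21-/- (adjusted p = 0.0758), arl6, which recruits the BBSome to membranes, was called nowhere, and so was bbs10, which encodes a chaperonin-like assembly factor (-0.41 in rad21-/-, adjusted p = 0.158). bbs12, a second such factor, was called in BIO rad21+/-, at 5.97, 6.75, 5.68 and 5.29 CPM against 4.22, 4.68, 4.41 and 3.59 CPM in BIO WT, with no overlap (log2 fold change 0.49, SE 0.15, adjusted p = 0.0142). This call was lost without BIO rad21+/- pool 2 or BIO WT pool 4 (adjusted p = 0.0569 to 0.0643).

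Of the 10 transition zone genes, 4 were lower and 0 higher in rad21-/- (median -0.20), and 2 were lower and 0 higher in rad21+/- (median -0.14). These shares, 40% and 20% of the genes, are near the 32.5% and 20.5% of all genes called. tctn1 (chr10:8416117-8434816, minus strand) encodes a tectonic protein of the gate that in mice is needed for Hedgehog signalling. It was at 7.35, 6.57, 6.97 and 7.16 CPM in rad21-/-, 6.61, 7.85, 6.88 and 7.20 CPM in rad21+/-, 11.1, 12.5, 14.99 and 13.1 CPM in stag2b-/- and 10.8, 12.6, 11.9 and 11.5 CPM in WT. Both rad21 genotypes lay at about the same level, below all WT pools, and stag2b-/- pools overlapped WT. The log2 fold change was -0.73 in rad21-/- (SE 0.12, adjusted p = 0.000123) and -0.71 in rad21+/- (SE 0.12, adjusted p = 0.000258). In the BIO-treated pools it was at 7.83, 7.55, 8.89 and 9.83 CPM in rad21-/-, 10.9, 10.1, 8.36 and 10.4 CPM in rad21+/- and 12.3, 11.2, 13.2 and 14.4 CPM in WT. Both were again under WT, by -0.59 in rad21-/- (SE 0.12, adjusted p = 0.00017) and by -0.37 in rad21+/- (SE 0.12, adjusted p = 0.0204). The BIO rad21+/- call was lost without BIO rad21+/- pool 3 or BIO WT pool 4 (adjusted p = 0.0923 to 0.106).

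tctn2, a second tectonic gene, was at 11.95, 11.4, 12.3 and 12.1 CPM in rad21-/- and 16.2, 14.1, 18.8 and 18.3 CPM in WT, without overlap (log2 fold change -0.49, SE 0.12, adjusted p = 0.00513). b9d2, one of the B9-domain proteins of the gate, was at 9.24, 7.12, 8.11 and 8.48 CPM in rad21-/-, 9.60, 9.37, 8.16 and 6.91 CPM in rad21+/- and 12.1, 9.56, 11.6 and 11.7 CPM in WT, which gave log2 fold changes of -0.44 (SE 0.13, adjusted p = 0.0146) in rad21-/- and -0.40 (SE 0.13, adjusted p = 0.0366) in rad21+/-. The b9d2 calls were lost without rad21-/- pool 2 (adjusted p = 0.0621), and without rad21+/- pool 3 or 4 or WT pool 1, 3 or 4 (adjusted p = 0.0697 to 0.126), the second of them also with no filter on low counts. Under BIO, b9d2 was called in neither rad21 genotype. Its interaction with BIO in rad21+/- was 0.54 on the log2 scale (adjusted p = 0.128), opposite in sign to the untreated change. tmem67, which encodes the membrane receptor meckelin, was at 23.1, 26.1, 34.6 and 30.9 CPM in rad21-/- and 32.3, 33.1, 44.8 and 41.6 CPM in WT. Its pools overlapped (log2 fold change -0.40, SE 0.14, adjusted p = 0.0401), and the call was lost without rad21-/- pool 1 or 2 or WT pool 3 or 4 (adjusted p = 0.109 to 0.130).

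cc2d2a, a coiled-coil and C2-domain protein of the gate, was lower in BIO rad21-/- (log2 fold change -0.33, SE 0.11, adjusted p = 0.0237) and BIO rad21+/- (-0.31, SE 0.11, adjusted p = 0.0478) than in BIO WT, with overlapping pools in both. The BIO rad21-/- call was lost without BIO rad21-/- pool 2 or 3 or BIO WT pool 1 or 4 (adjusted p = 0.0770 to 0.143). The BIO rad21+/- call was lost without BIO rad21+/- pool 2, 3 or 4 or BIO WT pool 1 or 4 (adjusted p = 0.0998 to 0.192), and under DESeq2, RLE normalization and no filter on low counts. b9d1, a partner of B9d2, and rpgrip1l, a scaffold of the gate, were called in no comparison.

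In the ciliary membrane, arl13b (chr1:33668236-33694795, plus strand) encodes a small GTPase that in mice and zebrafish is needed for normal cilia and Hedgehog signalling. It was at 18.1, 14.6, 16.2 and 15.8 CPM in rad21-/-, 16.7, 19.3, 18.2 and 16.03 CPM in rad21+/-, 16.9, 18.7, 19.1 and 16.2 CPM in stag2b-/- and 22.2, 19.8, 26.1 and 22.3 CPM in WT. The pools of all 3 mutants lay below those of WT. Relative to WT the log2 fold change was -0.48 in rad21-/- (SE 0.11, adjusted p = 0.00317), -0.36 in rad21+/- (SE 0.11, adjusted p = 0.0257) and -0.36 in stag2b-/- (adjusted p = 0.0600), which was not called. With BIO its level was 16.4, 16.1, 15.6 and 17.6 CPM in rad21-/- and 19.9, 20.1, 19.2 and 19.96 CPM in WT (log2 fold change -0.27, SE 0.09, adjusted p = 0.0229). The rad21+/- call was lost without rad21+/- pool 1 or 4 or WT pool 3 (adjusted p = 0.0692 to 0.0815), and the BIO call without BIO rad21-/- pool 1, 2 or 3 or BIO WT pool 1 or 4 (adjusted p = 0.0548 to 0.0657).

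inpp5e, the phosphoinositide phosphatase that Arl13b brings into the cilium, was at 16.6, 15.97, 16.2 and 18.8 CPM in BIO rad21-/-, 15.6, 17.4, 16.1 and 15.9 CPM in BIO rad21+/- and 19.1, 20.3, 20.8 and 22.5 CPM in BIO WT. It was lower in both, by -0.29 in rad21-/- (SE 0.10, adjusted p = 0.0261) and -0.35 in rad21+/- (SE 0.10, adjusted p = 0.0135) on the log2 scale. The first call was lost without BIO rad21-/- pool 1, 2 or 3 or BIO WT pool 4 (adjusted p = 0.0670 to 0.124) and the second without BIO WT pool 4 (adjusted p = 0.0567). wdpcp, a planar polarity effector that acts in IFT assembly, was called in none of the main fits. With BIO in stag2b-/- it had a log2 fold change of 0.58 (adjusted p = 0.0646). Under DESeq2 that response was called higher (adjusted p = 0.0344).

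Set against their heterozygous relatives, rad21-/- tailbuds had 0 of 47 cilium genes called higher or lower by edgeR and 0 by DESeq2, where edgeR called 5.32% of all genes (1.47% higher, 3.84% lower). The lowest adjusted p was 0.128. An unadjusted p under 0.05 was found for 8 cilium genes and for 3261 of the 20677 genes tested. The pools of the 2 genotypes did not overlap for 5 cilium genes and for 13.6% of all genes. The median log2 fold change was -0.11, against 0.00 over all genes. Of the 47 values 12 were positive, as were 10368 of the 20677 over all genes.

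Across the 4 genotypes 16 calls were made on 12 genes, each of them higher with BIO in the 32-library fit. In rad21-/- 2 were higher, where 7.16% of all genes were called and 2.1% called higher. In rad21+/- 4 were higher, where 3.62% of all genes were called and 1.31% called higher. In stag2b-/- 3 were higher, where 7.99% of all genes were called and 3.26% called higher. In WT 7 were higher, where 17.3% of all genes were called and 7.58% called higher. Called lower were 0 cilium genes in each of the 4 genotypes, where 5.06%, 2.31%, 4.72% and 9.76% of all genes were called lower. The median log2 fold change of the cilium genes was 0.19 in rad21-/-, 0.15 in rad21+/-, 0.08 in stag2b-/- and 0.07 in WT. Over all genes it was 0.012, -0.005, -0.005 and -0.003 in the same order. Of the 47, 24 had a positive value in all 4 genotypes and 0 a negative value in all 4. This count was not made over all genes, so it has no background to be read against. In rad21-/-, dync2h1 was called lower with the replicate block (log2 fold change -0.39, adjusted p = 0.0447) and when the fit held the 2 rad21-/- groups alone (-0.39, adjusted p = 0.0417), and in WT traf3ip1 was called lower without WT pool 3 (-0.42, adjusted p = 0.0225). Without rad21-/- pool 1 or BIO rad21-/- pool 4, 1 call was left in rad21-/-. Without any of BIO rad21+/- pools 1, 2 and 4 or rad21+/- pools 1, 3 and 4, 0 were left in rad21+/-, where 0.549% to 1.72% of all genes were then called. In WT 3 were left without WT pool 1 and 4 without BIO WT pool 2 or 3. Without stag2b-/- pool 3, 5 were called in stag2b-/-. For these left-out fits in rad21-/-, WT and stag2b-/- no share of all genes is given. Their counts cannot be read as particular to the cilium genes. With the replicate number as a block, which paired the pools in the rad21+/- response, 7 were called there, with b9d2, bbs2 and ift22 added, against 8.59% of all genes.

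ift56 was the 1 cilium gene called in 3 of these responses. With BIO it was at 19.4, 16.8, 16.1 and 20.1 CPM in rad21-/- against 13.8, 12.2, 14.3 and 12.9 CPM untreated (log2 fold change 0.45, SE 0.10, adjusted p = 0.00587). In stag2b-/- it was at 32.8, 24.2, 27.7 and 27.4 CPM with BIO against 20.3, 19.7, 20.6 and 21.6 CPM untreated (log2 fold change 0.44, SE 0.10, adjusted p = 0.00631). Neither pair of groups overlapped. In rad21+/- the log2 fold change was 0.35 (SE 0.10, adjusted p = 0.0445) with overlapping pools, and in WT it was 0.17 (adjusted p = 0.260), which was not called. The rad21+/- call was lost without BIO rad21+/- pool 1, 2 or 4 or rad21+/- pool 1, 3 or 4 (adjusted p = 0.0613 to 0.167), with no filter on low counts and when the fit held these 2 groups alone.

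In WT, bbs9 had the largest response among the called genes, at 4.22, 4.63, 3.92 and 4.45 CPM with BIO against 2.27, 3.37, 2.27 and 2.75 CPM untreated (log2 fold change 0.69, SE 0.15, adjusted p = 0.00179). In rad21-/-, rad21+/- and stag2b-/- its response was 0.12, 0.01 and 0.03. The difference from the WT response was -0.58 for rad21-/- (adjusted p = 0.240), -0.68 for rad21+/- (adjusted p = 0.142) and -0.67 for stag2b-/- (adjusted p = 0.130), so none passed in edgeR. Over all members, 0 interactions of genotype with BIO passed in edgeR. Of all genes, 0.874% passed for rad21-/- (0.393% positive, 0.482% negative), 0.912% for rad21+/- (0.426% positive, 0.486% negative) and 1.34% for stag2b-/- (0.711% positive, 0.631% negative). In the same order, 5, 8 and 5 cilium genes had an unadjusted p under 0.05, as did 2520, 2663 and 2820 of the 21385 genes tested. DESeq2 called 1 interaction among the cilium genes, that of bbs9 in rad21+/- (adjusted p = 0.0499), and 0 in the other genotypes.

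Other calls in WT were those of ift88, bbs4, nphp4, mks1 and inpp5e. nphp4, which encodes a nephrocystin of the transition zone, was at 10.6, 9.94, 9.17 and 9.95 CPM with BIO against 6.28, 8.01, 8.46 and 8.06 CPM untreated (log2 fold change 0.36, SE 0.11, adjusted p = 0.0252). No BIO pool lay within the untreated range. ift88 had a log2 fold change of 0.37 (SE 0.10, adjusted p = 0.00684), inpp5e of 0.32 (SE 0.10, adjusted p = 0.0275), bbs4 of 0.35 (SE 0.12, adjusted p = 0.0417) and mks1, which encodes another B9-domain protein, of 0.36 (SE 0.13, adjusted p = 0.0476). Besides that of bbs9, the call that was kept with each pool left out in turn was that of ift88. When the fit held these 2 groups alone, the call of bbs9 was left and those of these 5 genes were lost (adjusted p = 0.0902 to 0.173). The call of nphp4 was lost without BIO WT pool 1 or 2 or WT pool 1 (adjusted p = 0.0506 to 0.0912), that of inpp5e without BIO WT pool 3 or 4 or WT pool 1 (0.0554 to 0.101) and that of bbs4 without BIO WT pool 1, 2 or 3 or WT pool 1 or 4 (0.0506 to 0.126). The mks1 call was lost without BIO WT pool 2, 3 or 4 or WT pool 1, 2 or 3 (adjusted p = 0.0507 to 0.198) and with RLE normalization, and both the mks1 and the bbs4 call with no filter on low counts.

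In the mutants, bbs1 was higher with BIO in rad21-/-, at 6.12, 5.78, 5.31 and 6.96 CPM against 4.14, 4.53, 4.38 and 3.82 CPM untreated (log2 fold change 0.52, SE 0.14, adjusted p = 0.0170). The call was lost without BIO rad21-/- pool 4 or rad21-/- pool 1 or 4 (adjusted p = 0.0501 to 0.0771). In rad21+/-, tctn1 had a log2 fold change of 0.48 (SE 0.12, adjusted p = 0.0227), mks1 of 0.47 (SE 0.13, adjusted p = 0.0357) and dync2li1 of 0.35 (SE 0.10, adjusted p = 0.0456), each without overlap. The tctn1 and mks1 calls were each lost without BIO rad21+/- pool 1, 2 or 4 or rad21+/- pool 1, 3 or 4 (adjusted p = 0.0545 to 0.0920 for tctn1 and 0.0690 to 0.132 for mks1), and the dync2li1 call without any 1 BIO rad21+/- pool or rad21+/- pool 1, 3 or 4 (adjusted p = 0.0679 to 0.156), with no filter on low counts and when the fit held these 2 groups alone (adjusted p = 0.0710). In stag2b-/-, ift88 had 0.32 (SE 0.10, adjusted p = 0.0385), and this call was lost without any 1 BIO stag2b-/- pool or stag2b-/- pool 1 or 4 (adjusted p = 0.0540 to 0.118), with no filter on low counts and when the fit held these 2 groups alone (adjusted p = 0.124).

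Other cilium genes were counted beside these, from lists of genes with no member in common. In untreated rad21-/- over WT, 5 of 68 other primary cilium genes were higher and 14 lower (median log2 fold change -0.18), 1 of 34 basal body genes was higher and 15 lower (median -0.25), and 3 of 72 motile cilium genes were higher and 54 lower (median -1.20). Among the motile cilium genes, iqcg of the nexin-dynein complex was at -4.52 and dnaaf3, a dynein arm assembly factor, at -3.39, while the dynein heavy chain gene dnah11 was at 1.14. In rad21-/- over rad21+/-, 0 of the 47 IFT and primary cilium genes were called, 1 of 68 other primary cilium genes, 1 of 34 basal body genes and 50 of 72 motile cilium genes, each of them lower (motile median -1.28). In stag2b-/- over WT, 1 of 47 was called, 1 of 68 (tmem107, -1.02), 0 of 34, where 9 had an unadjusted p under 0.05, and 30 of 72, each of them lower (motile median -0.75). Over all genes tested in stag2b-/- over WT, 4261 of 20677 had an unadjusted p under 0.05. In rad21+/- over WT, 7 of 72 motile cilium genes were higher and 7 lower (median -0.02). Of all genes, 32.5% were called in rad21-/- over WT (15.8% higher, 16.7% lower) and 5.32% in rad21-/- over rad21+/-. The share was 6.29% in stag2b-/- over WT and 20.5% in rad21+/- over WT.

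**Figure D5:**
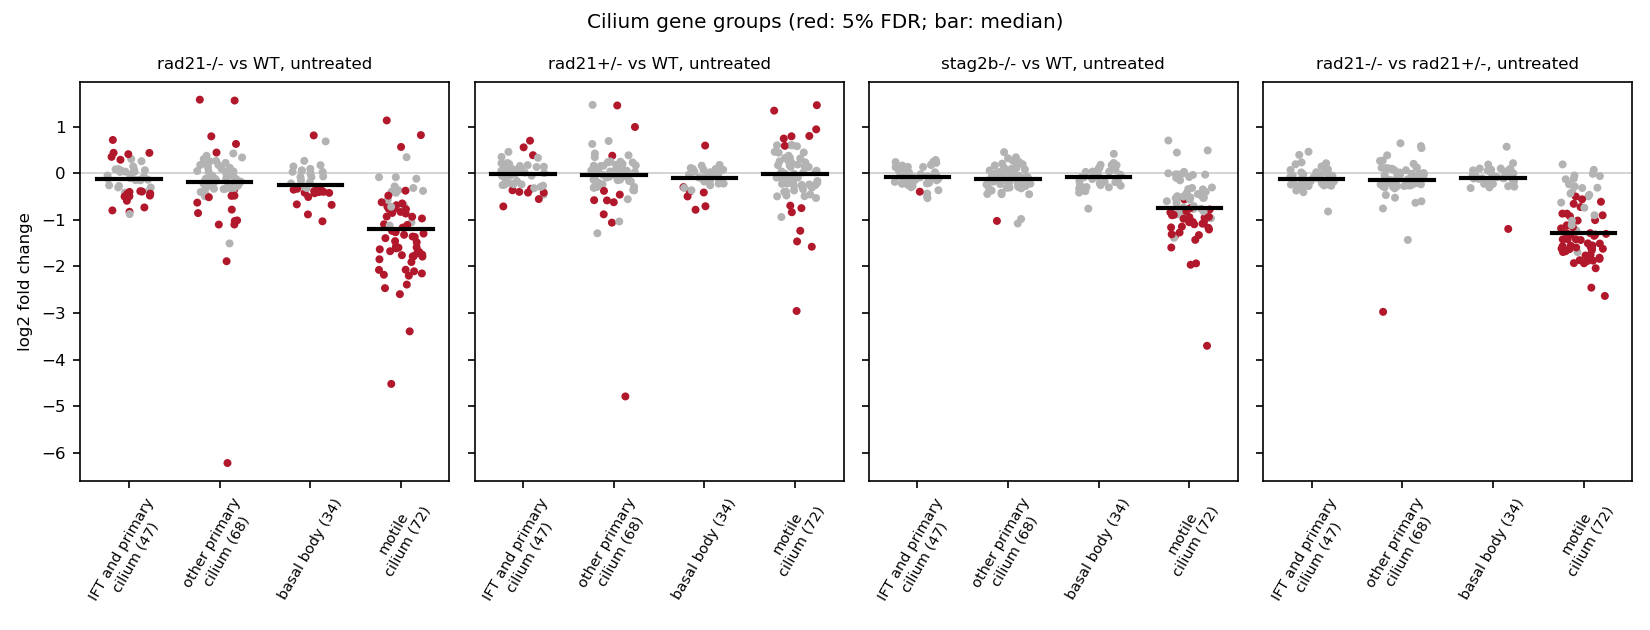
log2 fold change of each gene (point) in 4 lists of cilium genes, in 4 comparisons of untreated tailbuds; red points were called at a 5% false discovery rate and the bar is the median. The motile cilium genes have medians of -1.20 in rad21-/- over WT, -0.75 in stag2b-/- over WT and -1.28 in rad21-/- over rad21+/-, while the IFT and primary cilium genes have -0.12, -0.09 and -0.11.

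Transcription factors of ciliated cells were measured in the same libraries. foxj1b, which drives motile cilium genes, averaged 2.38 CPM in rad21-/- and 13.2 CPM in WT (log2 fold change -2.47), and foxj1a 11.2 CPM in rad21-/- and 24.6 CPM in WT (-1.13), both called. rfx2, a regulator of cilium genes more widely, averaged 43 CPM in rad21-/- and 62.6 CPM in WT (-0.54, adjusted p = 0.0020), while in rad21+/- it was higher than in WT (0.33, adjusted p = 0.0492). In stag2b-/- rfx3 was lower (-0.84, adjusted p = 0.00943), as was foxj1b (-0.56, adjusted p = 0.0226). rfx4 was called in no comparison.

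Markers of other cells also differed between these groups. In rad21-/- 11 of 18 skeletal muscle markers were higher and 2 lower (summed level 1054 to 1249 CPM in rad21-/-, 760.4 to 974 CPM in WT), 8 of 17 neuronal markers were higher and 2 lower (238 to 283 CPM in rad21-/-, 184 to 226 CPM in WT), and 0 of 12 blood and endothelium markers were higher and 8 lower (229 to 318 CPM in rad21-/-, 412 to 549 CPM in WT). Of the tailbud progenitor markers 2 of 15 were higher and 9 lower (2256 to 2701 CPM in rad21-/-, 3017 to 3746 CPM in WT), and of the Kupffer's vesicle markers 0 of 14 were higher and 5 lower (569 to 626 CPM in rad21-/-, 647 to 761 CPM in WT). In the Kupffer's vesicle sum tbx16 had the highest level (group means 193 to 423 CPM), and it is also a tailbud progenitor marker. The highest itgb1 row followed, at 116 to 140 CPM. Group means of dand5, sox17 and dnah9 reached at most 34.4, 0.62 and 0.704 CPM, so this sum says little about them. In the tailbud progenitor sum tbx6 (794 to 1158 CPM), msgn1 (321 to 711 CPM) and cdx4 (465 to 671 CPM) had the highest levels. Group means of sox2 were 44.0 to 79.0 CPM, so that sum says little about it. The study takes tbx16 as a label of paraxial mesoderm. It reports neuromesodermal progenitor genes as higher and mesoderm genes as lower in rad21-/-. In rad21+/- 0 of 12 blood and endothelium markers were higher and 8 lower (171 to 261 CPM), 7 of 17 neuronal markers were higher and 1 lower (261 to 295 CPM), and 5 of 18 skeletal muscle markers were higher and 1 lower (1012 to 1260 CPM). In stag2b-/- 2 of 17 neuronal markers were higher and 0 lower (227 to 249 CPM), and 0 of 15 tailbud progenitor markers were higher and 3 lower (2880.2 to 3004 CPM), and neither sum overlapped WT. With BIO, all 15 skin markers were lower in WT (24729 to 33686 CPM with BIO, 35373 to 81114 CPM untreated), 9 in rad21-/- and 8 in stag2b-/-, whereas 0 were called in rad21+/-. Of 16 tailbud progenitor markers tested, 4 were higher with BIO and 0 lower in WT (3899 to 4165 CPM with BIO, 3017 to 3746 CPM untreated), and 4 were higher and 1 lower in rad21-/- (2808 to 3154 CPM with BIO, 2256 to 2701 CPM untreated). Of 18 skeletal muscle markers, 2 were higher and 0 lower in WT (1077 to 1279 CPM with BIO, 760.4 to 974 CPM untreated). The summed level of the 47 cilium genes was 672 to 732 CPM in rad21-/-, 685 to 841 CPM in rad21+/-, 706 to 743 CPM in stag2b-/- and 729 to 832 CPM in WT, and 721 to 844, 795 to 865, 750 to 799 and 786 to 853 CPM in the same genotypes with BIO. Of the listed markers, 12 lacked reads in some library, among them smyd1 of muscle, atoh1 of neurons and sox32, vil1 and cftr of Kupffer's vesicle. The part of these cell markers in the cilium gene results was not tested.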

How the data were processed

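Per the labels and the study's methods, stranded paired-end mRNA libraries were trimmed with cutadapt, aligned to GRCz11 with HISAT2, handled with SAMtools and counted by gene with featureCounts 1.5.3 on the Ensembl 98 annotation. The authors deposited these as 1 table of raw read-pair counts for 32 libraries, without normalization. Pairs that matched several places or several genes were not counted. Versions of the other tools are not given in the sources used here.

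Counts were tested in R 4.3.3 with edgeR 4.0.16 (TMM normalization, filterByExpr, robust quasi-likelihood fit) and Benjamini-Hochberg adjustment at a 5% false discovery rate. Untreated mutants were tested on the 16 untreated libraries (20677 genes), other contrasts on all 32 (21385 genes). CPM values use 32-library TMM factors (0.874 to 1.06), and CPM per kb divides by exon length. Coordinates are those of the count table. Figures were drawn with matplotlib 3.10.9. The fits were tested on simulated counts with known changes.

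Symbols come from a table of Ensembl IDs: 45 members matched by symbol and 2 rows are named KIFAP3. Copies that share a name (kifap3, kif3c, stag2b, foxj1a) were told apart by chromosome in the RefSeq annotation of GRCz12tu, whose coordinates were not used. Of the members, 43 share no exon base with another gene on their strand, and ift56 (21.97%), ift88 (8.50%), bbs10 (6.04%) and bbs12 (1.97%) share some. Genes of these families whose symbol had no match, such as ift27, ift43, ift122 and tctn3, were not analysed here.

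Members, lists and tests were chosen with earlier results of these data known. Genes were named with values where they had the 3 highest or 3 lowest called changes of a comparison, were called in both the untreated and the BIO comparison of a genotype, had the 3 highest or lowest levels per length, or are kinesin-2 paralogues; other called members are named too. Of the 47 members, 2 enter all counts and medians but are not reported here by name. Of the other lists, sox10a and clxn were taken out as errors.

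DESeq2 1.42.0, RLE normalization, no filter, another choice of libraries in the fit, a replicate block and leaving out each pool were run as alternatives. Same-numbered pools were taken as paired where each of the 4 numbers had deviations correlated above 0.1, which was so for the BIO response in rad21+/- (0.189 to 0.446) and, under BIO, for rad21-/- (0.144 to 0.414) and stag2b-/- (0.311 to 0.532) with WT. Pools of a group differed by more than sampling noise (chi-square per gene 8.75 to 193).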

Additional observations from a re-analysis of the deposited data

Results flagged for a closer look

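In 10 of 104 groups of 4 pools over the 13 cilium genes plotted by pool, 1 pool stood apart from the others, meaning that its gap to the nearest pool, as a share of the group's range, was above Dixon's 95% critical value. Chance gives about 1 in 20 groups. Over all 47 genes this was so in 29 of 376 groups.

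The high ones were bbs1 in rad21+/- pool 2 (6.43 CPM, others 5.05 to 5.23, gap 0.869 of the range), bbs2 in BIO WT pool 1 (16.7 CPM, others 13.2 to 13.7, gap 0.840), bbs4 in BIO stag2b-/- pool 3 (4.29 CPM, others 3.52 to 3.62, gap 0.862), ift52 in rad21+/- pool 2 (20.99 CPM, others 18.7 to 19.1, gap 0.830) and kif3a in stag2b-/- pool 4 (30.9 CPM, others 25.4 to 26.2, gap 0.855). The low ones were bbs1 in stag2b-/- pool 3 (5.26 CPM, others 8.14 to 8.27, gap 0.958), bbs4 in BIO rad21-/- pool 3 (6.83 CPM, others 8.41 to 8.69, gap 0.849) and in WT pool 1 (3.40 CPM, others 4.27 to 4.44, gap 0.831), ift56 in WT pool 2 (21.4 CPM, others 23.6 to 23.98, gap 0.851) and ift57 in rad21+/- pool 3 (19.9 CPM, others 27.7 to 28.1, gap 0.943).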

How the results depend on the processing

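Of the 93 named fold changes followed, 76 were called in the main fit and the rest were kinesin-2 values that were not called. Of their 1209 alternative values, 1032 were counted as the same, 177 kept the direction and lost the call, and 0 reversed. For a called change, the same means that direction and call were kept. For a change not called, it means that no call was gained, whatever the sign. Counts of called cilium genes moved as follows. The share of all genes called under each alternative is not set beside these counts. A change in a count therefore cannot be read as particular to the cilium genes. Under DESeq2 the BIO response gave 5 in rad21-/- and 9 in rad21+/-, stag2b-/- over WT gave 4 untreated and 4 under BIO, and the rad21+/- interaction gave 1. With no filter on low counts stag2b-/- over WT gave 0 and the BIO response in rad21+/- 2. Fits on the compared groups alone gave 2 in the rad21+/- response and 1 in the WT response. Fits on all 32 libraries gave 4 in stag2b-/- over WT and 1 in rad21-/- over rad21+/- (tmem67, -0.41, adjusted p = 0.0314). The replicate block gave 6 in the rad21-/- response (5 higher, 1 lower), 7 in the rad21+/- response, 2 in stag2b-/- over WT untreated and 5 under BIO, and 1 in the rad21+/- interaction (b9d2); over all libraries, 23 of 32 correlated best with their own number. Leaving out 1 pool gave 13 to 17 calls in rad21-/- over WT, 6 to 11 in rad21+/- (6 without rad21+/- pool 1 or WT pool 4), 0 to 2 in stag2b-/- and 0 to 0 in rad21-/- over rad21+/-. Under BIO it gave 9 to 16 (9 without BIO rad21-/- pool 3), 8 to 13 (8 without BIO WT pool 4) and 1 to 3 for the same genotypes. For the BIO response it gave 1 to 3 in rad21-/-, 0 to 6 in rad21+/-, 2 to 5 in stag2b-/- and 3 to 8 in WT. Calls kept whichever pool was left out were 10 of 18 in rad21-/-, 5 of 10 in rad21+/- and 0 of 1 in stag2b-/-, and under BIO 9 of 16, 7 of 13 and 1 of 2. RLE normalization shifted the median of all genes by at most 0.0221.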

Other observations

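Hedgehog signalling passes through the primary cilium. Of 9 Hedgehog target genes, 2 were higher and 3 lower in rad21-/- than in WT, 1 was higher and 0 lower in rad21+/-, and 0 were higher and 1 lower in stag2b-/-. Of 20 Hedgehog ligands and transducers, 4 were higher and 4 lower in rad21-/-, 5 higher and 1 lower in rad21+/-, and 0 higher and 1 lower in stag2b-/-. Of all genes, 32.5% were called in rad21-/-, 20.5% in rad21+/- and 6.29% in stag2b-/-.

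Under BIO, 2 of 72 motile cilium genes were higher and 48 lower in rad21-/- than in WT (median log2 fold change -0.88), 5 were higher and 10 lower in rad21+/-, and 1 was higher and 38 lower in stag2b-/- (median -0.65). Of 68 other primary cilium genes 6 were higher and 16 lower, 3 higher and 8 lower, and 1 higher and 6 lower in the same genotypes. Of 34 basal body genes 1 was higher and 11 lower, 2 higher and 6 lower, and 1 higher and 2 lower. The shares of all genes called were 35.6%, 22.9% and 13.6% in the same order.

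Floor plate and notochord markers, which include foxj1a and noto, had 5 of 18 higher and 7 lower in rad21-/- (summed level 1703 to 1894 CPM in rad21-/-, 1137 to 1593 CPM in WT). They had 6 higher and 0 lower in rad21+/- (1664 to 2159 CPM) and 0 higher and 5 lower in stag2b-/- (1167 to 1378 CPM). The highest group means in this sum were those of the col2a1 rows (473 and 312 CPM), ntd5 (360 CPM) and col8a1a (310 CPM). Group means of the higher shh row reached 43.5 CPM, so the sum says little about it. Pronephros markers had 2 of 15 higher and 2 lower in rad21-/- (408 to 474 CPM in rad21-/-, 403 to 474 CPM in WT).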
